A study of Mus musculus with 186 samples.

Results

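The striatum is the input nucleus of the basal ganglia. Most of its neurons are GABAergic projection neurons of the direct pathway, which carry the D1 dopamine receptor, or of the indirect pathway, which carry the D2 receptor and enkephalin. Between weaning and adulthood, oligodendrocytes wrap striatal axons in myelin, a membrane rich in cholesterol that the brain makes for itself, while vessels, extracellular matrix and synapses take on their adult form. The 10 libraries described here are bulk RNA-seq of wild-type (WT) mouse striatum, 5 at 4 weeks of age and 5 at 12 weeks, chosen by their labels from 186 libraries in all.

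The series profiled 6 brain regions of mice that were WT, heterozygous (Akap11 +/-) or homozygous mutant for Akap11, which encodes an anchoring protein of protein kinase A, at both ages. The WT animals carry no listed allele or treatment. Tissue was cut from frozen brains in a cryostat, and 200 ng of total RNA went into a stranded mRNA library. The labels give no strain, and they do not say that each striatal library came from a separate animal, so p-values measure only the spread between these libraries. Each age is a set of its own, so that age and anything else that differed between the sets cannot be told apart. In bulk tissue, fewer cells of a type and less RNA per cell cannot be told apart either. A 10-library set from Akap11 +/- striatum (HET), which shares no library with the WT set, and 31 WT libraries of prefrontal cortex (PFC), somatosensory cortex (SSC) and hippocampus (HP) served for comparison. Akap11 itself stood between 353 and 406 CPM (counts scaled to a common library size) in the 5 WT libraries at 4 weeks and between 290 and 358 at 12 weeks, and between 171 and 215 in the 10 HET libraries.

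Total counts ran from 31923033 to 71225358 per WT striatal library. The libraries bore striatal identity: the 24 genes listed for all striatal projection neurons summed to 23779 to 41257 CPM at 4 weeks and 22396 to 30415 CPM at 12 weeks. Their Y-linked genes were at similar levels throughout (Ddx3y at 41.7 to 46.5 CPM at 4 weeks and 47.4 to 51.3 at 12 weeks), with Xist at most 0.0297 CPM. 4 libraries stood apart by markers of neighbouring tissue. The 4-week library WT 92 held 624 CPM of Slc17a7, the vesicular glutamate transporter of cortical neurons, against 2.65 to 14.1 CPM in the other 4-week libraries and 1.41 to 4.19 CPM at 12 weeks. The 10 ependymal markers, genes of the ciliated cells that line the ventricle, summed to 68.0 CPM in 4-week WT 913, 82.9 in 12-week WT 3 and 55.1 in 12-week WT 5, and to 12.5 to 22.5 CPM in the other 7. The first principal component (29.2% of the variance) separated those 3 libraries, and 12-week WT 1, from the rest, and the second (23.5%) ran with age, with 12-week WT 3 among the 4-week libraries. The 5 haemoglobin and red cell genes summed to 2.13 to 43.3 CPM at 4 weeks and 0.0878 to 2.596 CPM at 12 weeks. The 10 choroid plexus markers summed to 250.3 to 393.6 CPM at 4 weeks and 195.3 to 247.6 CPM at 12 weeks, without overlap, and 1 of the 4 tested fell. Ttr, a member of that list, was close to absent, at most 0.375 CPM at 4 weeks and 0.984 CPM at 12 weeks. The mean log2(CPM + 1) of the choroid plexus markers was 1.28 to 1.57 and 1.43 to 1.81, and that of thalamic markers 2.72 to 3.10 and 2.68 to 3.15. 3 of the 10 cortical markers tested, all 3 blood genes tested and no ependymal marker fell with age, where 6.52% of all genes tested fell by the rule given below. No gene of any marker list was at 0 in all 10 libraries.

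**Figure D1:**
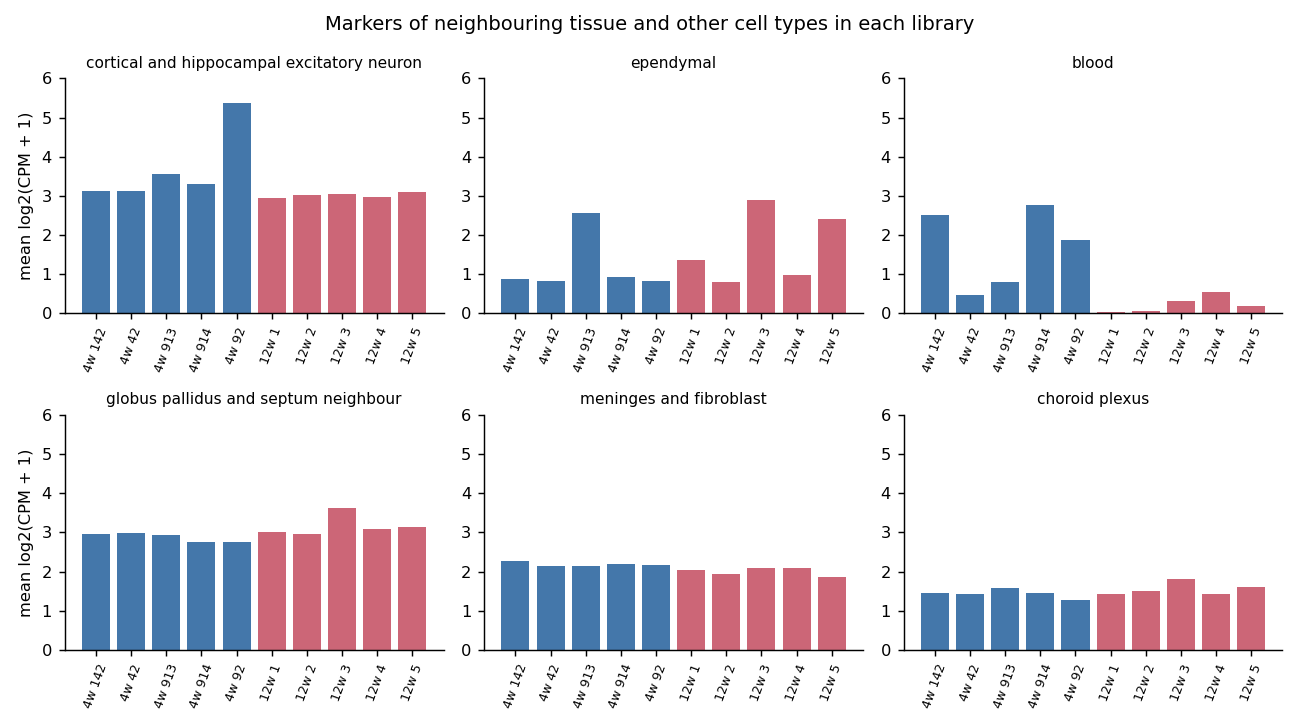
Mean log2(CPM + 1) of 6 marker lists in each WT striatal library (blue, 4 weeks; red, 12 weeks). The cortical list stands out in 4-week WT 92 (5.38 against 2.95 to 3.54 in the other 9), the ependymal list in 4-week WT 913 and 12-week WT 3 and WT 5, and the blood list in 4-week WT 142, WT 914 and WT 92.

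Of 15162 genes tested with edgeR's quasi-likelihood test and Benjamini-Hochberg adjustment, 2056 (13.6%) passed an adjusted p of 0.05 with all 10 libraries, 937 higher and 1119 lower at 12 weeks. Without WT 92, 1700 genes passed, 592 higher and 1108 lower, so the share of higher calls went from 45.6% to 34.8%. Because of this, a gene is said here to have risen or fallen with age only where it passed in the same direction both with all 10 libraries and without WT 92. 1526 genes (10.1%) met that rule: 989 fell (6.52% of all tested) and 537 rose (3.54%). Most changes were small: the median size among them was 0.42 on the log2 scale, and 88 genes fell and 54 rose by at least 1. In 1914 genes (12.6%) the 5 libraries of one age did not overlap with the 5 of the other. The median change over all genes tested was 0.02. The shares of 6.52% and 3.54% belong to the rule above and not to counts from other tests. DESeq2 called 1599 genes lower and 1128 higher. A fit of all 30 striatal libraries, mutants included, called 1505 lower and 1459 higher. An unadjusted p of 0.05 was passed by at least the 2056 genes that passed the adjusted one, and its full share was not counted. Age changes are given on the log2 scale, 12 minus 4 weeks, with ± for their SE (n = 5 libraries at each age).

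**Figure D2:**
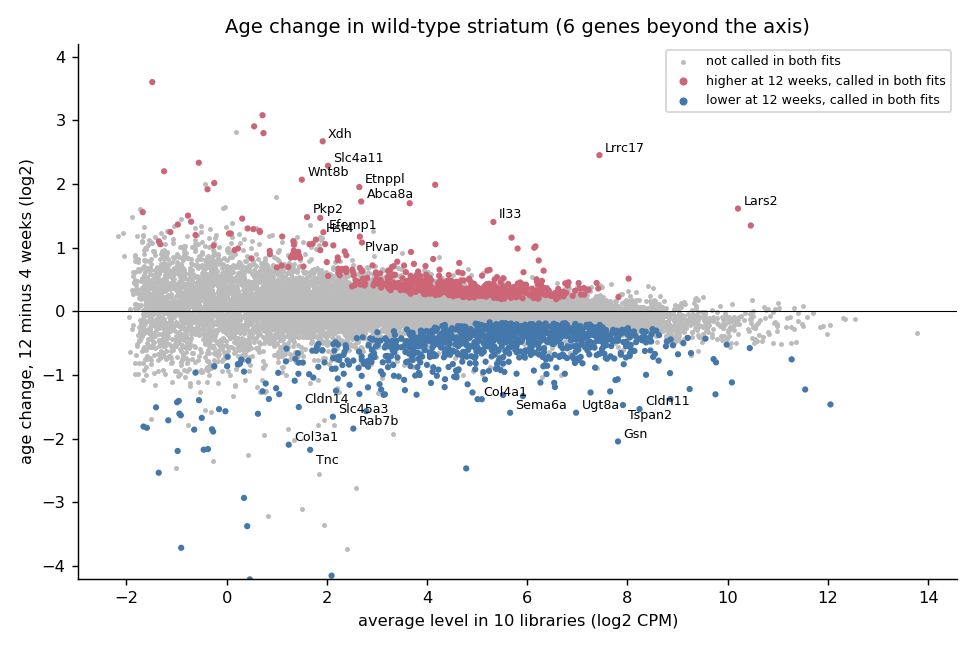
Age change (12 minus 4 weeks, log2) against average level (log2 CPM over 10 libraries) for every gene tested, with genes called both with and without 4-week WT 92 in red (higher at 12 weeks) or blue (lower). The largest changes among well-measured genes are named; Gsn combines a high level with a large fall, and Lrrc17 a high level with a large rise.

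The lists with the most falls were those of oligodendrocytes and of sterol synthesis. Of 26 genes listed for myelin and mature oligodendrocytes, 17 fell and 1, Il33, rose, with a median change of -0.64, where 6.52% of all genes tested fell. Of 22 genes listed for oligodendrocyte precursors and newly formed oligodendrocytes, 14 fell and none rose, with a median of -0.56. Gsn, which encodes the actin-severing protein gelsolin and is strong in oligodendrocytes (chr2:35256380-35307892), had the largest fall on the myelin list. It stood at 405, 316, 277, 468 and 340.0 CPM in 4-week libraries WT 142, WT 42, WT 913, WT 914 and WT 92, and at 97.2, 71.2, 88.4, 84.2 and 97.3 CPM in 12-week libraries WT 1 to WT 5, the order used for all values by library. The change was -2.04 ± 0.14 (adjusted p = 1.3e-05). The lowest 4-week library was above the highest 12-week library by a wide margin.

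Mbp, a major protein of compact myelin, was measured at 4519, 2326, 2968, 6349 and 4798 CPM at 4 weeks and 1718, 1909.6, 1354, 2011 and 1963 CPM at 12 weeks (log2 change -1.23 ± 0.25, adjusted p = 0.0069). Its 4-week libraries were spread widely, and the lowest of them, WT 42, was close to the 12-week range without entering it. Ugt8a, the enzyme that makes the galactolipids of myelin, changed by -1.59 ± 0.12 (adjusted p = 1.6e-05), and Cldn11, the claudin of myelin tight junctions, by -1.53 ± 0.15 (adjusted p = 6.4e-05). Mag, Cnp, Mog, Mal, Fa2h, Mobp, Trf, Opalin, Myrf, Nkx6-2 and Ermn also fell. Apod and Car2, the most abundant members that were not called, had values of 0.047 and -0.090. Outside the list, Tspan2, a tetraspanin of oligodendrocytes, changed by -1.47, Slc45a3, a sugar transporter, by -1.65, and Sema6a, a membrane semaphorin, by -1.59.

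Earlier stages of the lineage moved the same way. Gpr17, a receptor carried by precursors about to differentiate, stood at 144, 123, 114, 146 and 125 CPM at 4 weeks and 63.1, 61.5, 54.95, 55.8 and 50.7 CPM at 12 weeks (log2 change -1.19 ± 0.087, adjusted p = 1.5e-05). Every 12-week library was below every 4-week library. Enpp6, a marker of newly formed oligodendrocytes, changed by -1.12 ± 0.14 (adjusted p = 0.00027), Cnksr3 by -1.31, and Bmp4, a ligand that these cells secrete, by -1.09. Pdgfra, the growth factor receptor of precursors, had a smaller change: 59.7, 53.3, 54.7, 52.3 and 47.6 CPM at 4 weeks and 37.5, 35.1, 43.4, 41.03 and 43.4 CPM at 12 weeks (log2 change -0.42 ± 0.078, adjusted p = 0.0047), again with no overlap. Fyn and Bcas1, the most abundant members not called, had values of -0.21 and -0.18.

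Il33, which encodes a nuclear cytokine found in oligodendrocytes and astrocytes, went the other way. It stood at 24.2, 22.9, 21.1, 24.5 and 17.1 CPM at 4 weeks and 54.2, 55.5, 51.3, 67.2 and 62.4 CPM at 12 weeks (log2 change 1.40 ± 0.11, adjusted p = 1.6e-05). The 12-week values were all more than any 4-week value.

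**Figure D3:**
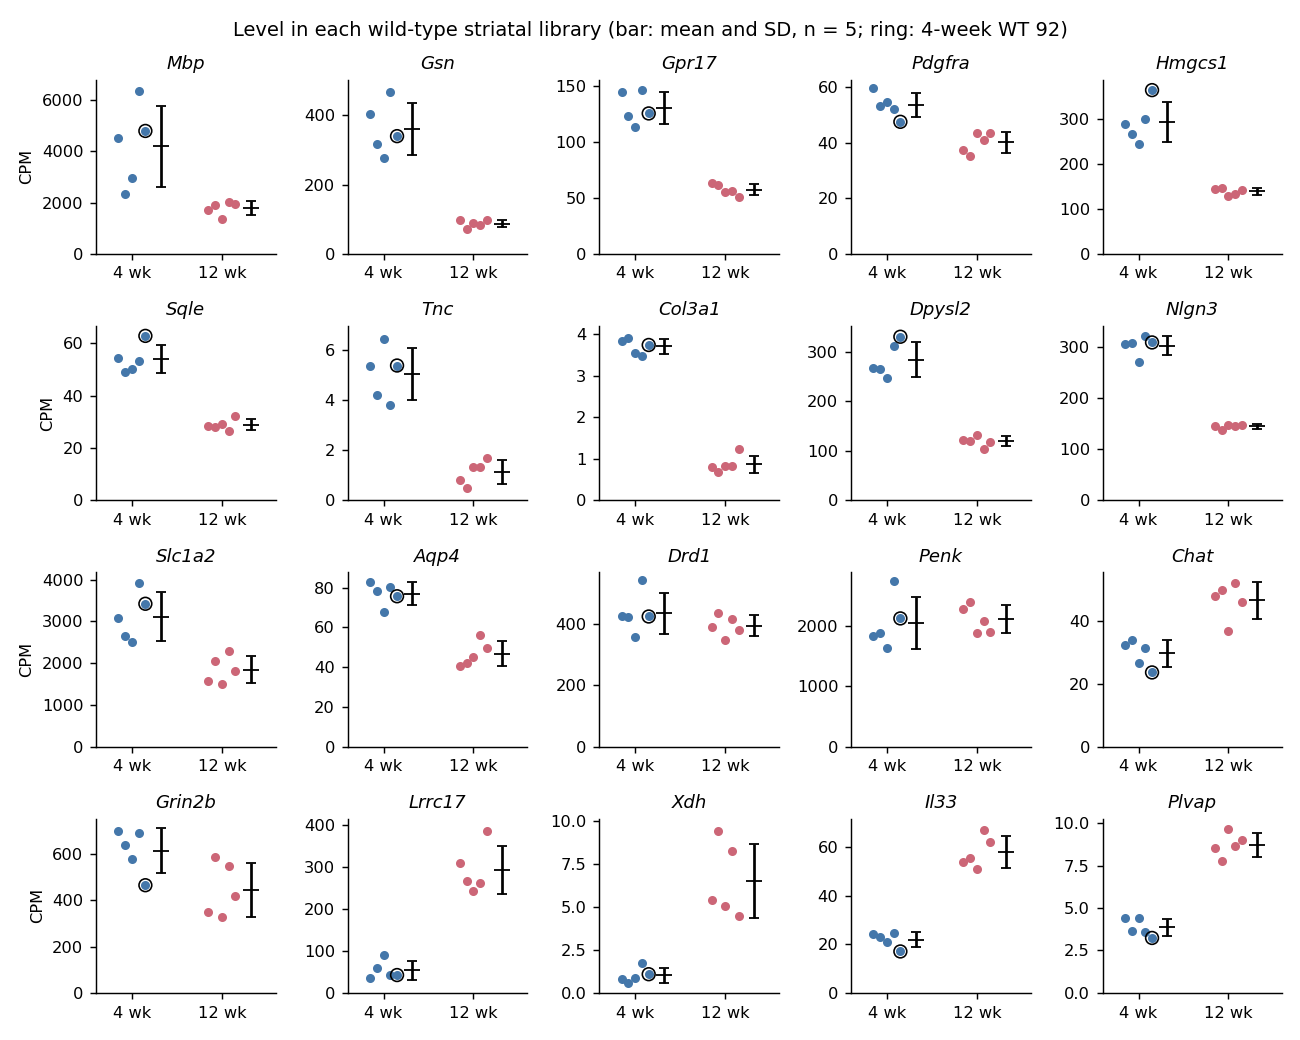
CPM of 20 genes in each WT striatal library at 4 weeks (blue) and 12 weeks (red), with the mean and SD of 5 libraries beside the points and a ring around 4-week WT 92; each vertical axis is linear from 0. The ages do not overlap for Mbp, Gsn, Hmgcs1, Tnc, Col3a1, Dpysl2, Nlgn3, Lrrc17 or Il33, and they overlap for Drd1, Penk and Grin2b.

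Genes for making cholesterol fell as a block. Of 24 genes listed for sterol synthesis and its control, 17 fell against 6.52% of all genes, none rose, and all 24 had a negative value, with a median of -0.42. They span the path from its first committed steps to its last: Hmgcs1, a step that leads to mevalonate, Mvk, Mvd and Idi1, which turn it into isoprenoid units, Fdps, Sqle and Lss, which join these into the first sterol, and Cyp51, Msmo1, Tm7sf2, Ebp, Sc5d and Dhcr7, which turn it into cholesterol. Insig1, which restrains the path when sterols are plentiful, fell with them.

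Upstream sequence was available for 16 of the 24 genes (RefSeq, GRCm38.p6). Within the 250 bases before an annotated start, all 16 held CCAAT, the letters bound by NF-Y, on one strand or the other in at least 1 window, against 40.0% of 11288 tested genes and 37.5% of 27025 genes with a sequence. The proliferation list, none of whose members was called, held it in 20 of 25. The sterol element TCACNCCAC, likewise searched on both strands, occurred in 1 of the 16, Hmgcs1, against 1.20% of the tested genes. The sequences shown are those of 4 members whose fall in striatum differed from that in other forebrain regions, with CCAAT (or ATTGG, its other strand) and, in Hmgcs1, the sterol element in capitals. They lie at chr13:119690101-119690350 (plus strand), chr13:8885356-8885605 (plus), chr5:4104698-4104947 (minus) and chr9:42264301-42264550 (minus), read toward the gene. A match describes letters, not binding.
Hmgcs1: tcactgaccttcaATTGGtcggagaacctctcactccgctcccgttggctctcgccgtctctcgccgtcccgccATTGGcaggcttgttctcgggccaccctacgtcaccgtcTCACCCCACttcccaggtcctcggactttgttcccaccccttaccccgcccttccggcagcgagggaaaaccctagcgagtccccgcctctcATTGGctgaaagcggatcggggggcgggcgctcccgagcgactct
Idi1: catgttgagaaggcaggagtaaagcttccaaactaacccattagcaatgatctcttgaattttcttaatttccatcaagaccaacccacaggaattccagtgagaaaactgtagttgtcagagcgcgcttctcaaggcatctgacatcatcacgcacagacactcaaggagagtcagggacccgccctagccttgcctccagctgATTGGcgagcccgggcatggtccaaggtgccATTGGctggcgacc
Cyp51: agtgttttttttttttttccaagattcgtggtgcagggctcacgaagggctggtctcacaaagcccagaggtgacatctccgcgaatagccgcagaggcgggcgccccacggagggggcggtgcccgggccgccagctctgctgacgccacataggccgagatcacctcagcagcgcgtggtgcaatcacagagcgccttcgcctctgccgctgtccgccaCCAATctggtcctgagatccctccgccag
Sc5d: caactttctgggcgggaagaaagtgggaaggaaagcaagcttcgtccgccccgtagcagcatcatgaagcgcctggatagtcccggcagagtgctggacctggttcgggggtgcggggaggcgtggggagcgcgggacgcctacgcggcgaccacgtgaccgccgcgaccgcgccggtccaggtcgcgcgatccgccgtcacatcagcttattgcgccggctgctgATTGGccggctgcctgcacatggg

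Hmgcs1 (chr13:119690379-119708260), whose window holds 3 copies of ATTGG, was measured at 291, 268, 244, 302 and 365 CPM at 4 weeks and 145, 148, 128, 133 and 143 CPM at 12 weeks (log2 change -1.08 ± 0.10, adjusted p = 5.9e-05). WT 92 was the highest 4-week library, and the other 4 were still above every 12-week library. Sqle, squalene epoxidase, gave 54.4, 49.2, 50.2, 53.2 and 62.9 CPM and then 28.4, 28.1, 29.3, 26.7 and 32.1 CPM (log2 change -0.90 ± 0.077, adjusted p = 3.2e-05), with the ages well apart. Cyp51 changed by -0.79 ± 0.070 (adjusted p = 4.3e-05). Fdft1 and Stard4 were not called, at -0.098 and -0.18.

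The striatal fall of several sterol genes was larger than that in other forebrain regions. In a fit of 8 WT groups (41 libraries), the age change in striatum was compared with the mean of the changes in PFC, SSC and HP. Of 17129 genes tested, 72 (0.42%) passed an adjusted p of 0.05 in edgeR, 49 lower (0.286%) and 23 higher in striatum. 5 sterol genes were among the 49. The age change of Hmgcs1 was -1.09 in striatum, -0.26 in PFC, -0.34 in SSC and -0.68 in HP, a difference of -0.66 ± 0.13 (adjusted p = 0.0074). That of Sqle was -0.91 in striatum, -0.27 in PFC, -0.29 in SSC and -0.57 in HP, with a difference of -0.53 ± 0.086 (adjusted p = 0.00081). Idi1 fell in striatum and HP and was not called in the cortical regions: its values were -0.64 in striatum, 0.19 in PFC, 0.12 in SSC and -0.50 in HP, with a difference of -0.58 ± 0.11 (adjusted p = 0.0078). Cyp51 and Sc5d differed by -0.45 ± 0.098 (adjusted p = 0.020) and -0.43 ± 0.082 (adjusted p = 0.0066). All 5 differences passed without WT 92 as well, the highest adjusted p being 0.046, for Cyp51. The Cyp51 difference did not pass without 4-week striatal WT 914 (adjusted p = 0.061) or without 12-week striatal WT 1 (0.074).

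Over the list, the median change in this fit was -0.43 in striatum, -0.49 in HP, -0.10 in PFC and -0.12 in SSC. In HP 20 of 24 members passed on the lower side, against 8.81% of all genes, in PFC 9 (10.4% of all genes) and in SSC 8 (10%). Set against all 5 other regions, thalamus and substantia nigra included, 21 genes differed, and none of Hmgcs1, Idi1, Cyp51 and Sc5d passed (adjusted p = 0.0505, 0.084, 0.31 and 0.19).

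**Figure D4:**
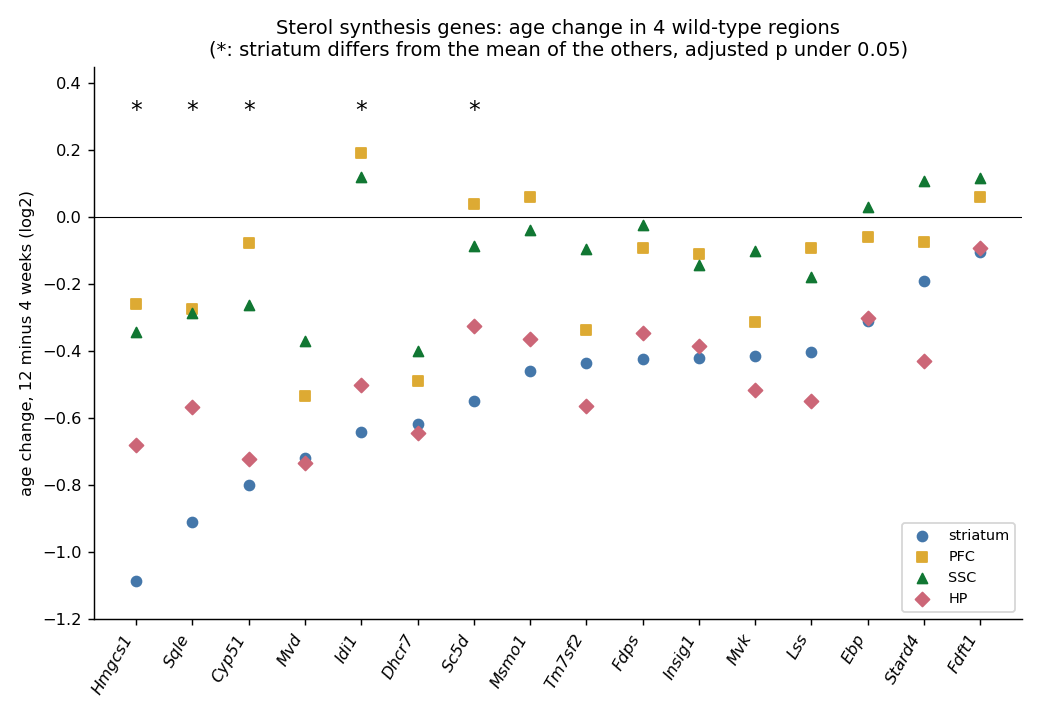
Age change (12 minus 4 weeks, log2, fit of 8 WT groups) of the sterol synthesis genes named in the text in striatum (circles), PFC (squares), SSC (triangles) and HP (diamonds), with an asterisk where striatum differed from the mean of the others at an adjusted p under 0.05. All striatal points lie under 0, and the asterisks mark Hmgcs1, Sqle, Cyp51, Idi1 and Sc5d.

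Other genes differed between striatum and forebrain. Among those that also rose or fell in WT striatum, the 5 largest differences on the lower side were Gsn (a difference of -1.02 ± 0.18, adjusted p = 0.0034), Rras2, a Ras-family GTPase (a difference of -0.99 ± 0.19, adjusted p = 0.0046), Tmem141 (a difference of -0.89 ± 0.13, adjusted p = 0.00026), Car14, a carbonic anhydrase (a difference of -0.87 ± 0.21, adjusted p = 0.049), and Hs3st1, a heparan sulfate sulfotransferase (a difference of -0.80 ± 0.15, adjusted p = 0.0034). Rras2 stood at 11.4, 5.21, 7.84, 6.21 and 6.44 CPM at 4 weeks and 3.60, 3.10, 4.03, 2.54 and 3.46 CPM at 12 weeks, a fall with no overlap, while its changes in PFC, SSC and HP were -0.068, -0.18 and -0.28. Set against all 5 other regions, none of these 5 differences passed: the values were -0.51 for Gsn (adjusted p = 0.92), -0.56 for Rras2 (adjusted p = 0.55), -0.69 for Tmem141 (adjusted p = 0.55), -0.71 for Car14 (adjusted p = 0.29) and -0.50 for Hs3st1 (adjusted p = 0.31). The fall of Gsn in striatum was also close to that in HP: its age changes in this fit were -2.05 in striatum, -0.47 in PFC, -0.87 in SSC and -1.76 in HP. Car14 was near the threshold, and its adjusted p rose to 0.11 without 12-week WT 3. On the higher side were Pcdhgb4 (a difference of 1.13 ± 0.15, adjusted p = 8.3e-05), Pkp2, a desmosome protein (a difference of 1.11 ± 0.18, adjusted p = 0.0010), Zbtb46, a zinc finger transcription factor (a difference of 1.07 ± 0.16, adjusted p = 0.00026), Pcdhga7 (a difference of 0.90 ± 0.12, adjusted p = 6.2e-05) and Pcdhgb5 (a difference of 0.76 ± 0.16, adjusted p = 0.015). Of these 5, Pcdhgb5 did not pass against all 5 other regions (0.78, adjusted p = 0.073) and the other 4 did. Pcdhga7 gave 39.01, 41.7, 35.6, 42.3 and 29.2 CPM at 4 weeks and 77.4, 83.2, 71.8, 72.96 and 66.7 CPM at 12 weeks in striatum, with no overlap. The 3 protocadherins are adhesion proteins of one gene cluster whose transcripts share their last exons, so reads may be split uncertainly among them. The number of genes that differed was 141 without 4-week WT 913 and 48 without 12-week WT 3.

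Matrix and vessel genes fell too. Of 31 genes listed for collagens and vascular matrix, 13 fell, against 6.52% of all genes tested, and none rose (median -0.62). Col3a1, a fibrillar collagen (chr1:45311538-45349706), gave 3.84, 3.91, 3.56, 3.49 and 3.74 CPM at 4 weeks and 0.791, 0.689, 0.818, 0.822 and 1.22 CPM at 12 weeks (log2 change -2.09 ± 0.18, adjusted p = 4.3e-05). The level was low at both ages, and the ages were far apart. Col4a1, a basement membrane collagen, gave 40.4, 36.6, 44.6, 60.3 and 50.3 CPM and 20.6, 17.9, 17.7, 16.03 and 16.9 CPM (log2 change -1.38 ± 0.12, adjusted p = 4.5e-05), again with no overlap. Its fall was larger in striatum than in the other forebrain regions (a difference of -0.73 ± 0.16, adjusted p = 0.018). Col1a2, Nid1 and Col1a1 changed by -1.30, -1.23 and -1.04, and Col9a3, Col4a2, Sparc, Loxl2, Serpinh1, Lamc1, Lama2 and Bgn also fell. The most abundant uncalled members, Col6a1 and Lamb1, had values of -0.38 and -0.098.

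Of 22 genes of endothelial and mural cells, 5 fell, against 6.52% of all genes, and none rose (median -0.24). Rgs5, a pericyte marker, changed by -0.95 ± 0.16 (adjusted p = 0.0023), Kdr, the VEGF receptor, by -0.94, Cspg4 by -0.69 and Mfsd2a, a lipid transporter of the blood-brain barrier, by -0.64. Cspg4 is also on the oligodendrocyte precursor list and was counted there too. Cldn5, the barrier claudin, gave 15.5, 10.4, 18.2, 17.9 and 16.9 CPM at 4 weeks and 19.1, 8.22, 10.7, 10.97 and 10.4 CPM at 12 weeks and was not called (log2 change -0.41 ± 0.21, adjusted p = 0.22), with 12-week WT 1 above every 4-week library. Slc2a1 and Vtn were not called (-0.31 and -0.18). Plvap, a protein of vessel diaphragms, rose from 4.41, 3.65, 4.40, 3.57 and 3.24 CPM to 8.52, 7.76, 9.64, 8.63 and 9.02 CPM (log2 change 1.17 ± 0.12, adjusted p = 8.5e-05), and the ages did not overlap. Of 10 meningeal and fibroblast markers, Igf2, Col1a1 and Igfbp2 fell and Ptgds rose, where 6.52% and 3.54% of all genes did. Their sum was 74.6 to 113 CPM at 4 weeks and 120 to 129 CPM at 12 weeks. Their mean log2(CPM + 1) went the other way, from 2.14 to 2.27 at 4 weeks to 1.86 to 2.10 at 12 weeks, and neither measure overlapped between the ages. Blood genes were lower at 12 weeks, as given above. Their part in these results was not tested.

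The matrix between neurons showed the same direction. Of 18 genes for perineuronal nets and brain matrix, 8 fell, against 6.52% of all genes, and none rose (median -0.40). Tnc, tenascin-C, a matrix protein of developing tissue (chr4:63959785-64047015), gave 5.38, 4.23, 6.47, 3.81 and 5.39 CPM at 4 weeks and 0.791, 0.504, 1.33, 1.34 and 1.67 CPM at 12 weeks (log2 change -2.17 ± 0.29, adjusted p = 0.00048). It had the largest fall of any gene named by the rule, from a low level, and the ages did not overlap. Adamts4, a protease that cuts these proteoglycans, changed by -1.33 ± 0.12 (adjusted p = 4.4e-05), Ncan, neurocan, by -0.996 ± 0.097 (adjusted p = 6.9e-05), and Has3, a hyaluronan synthase, by -0.71. Bcan, Hapln1, Ptprz1 and Tnr also fell, and Ptprz1 is counted on the oligodendrocyte precursor list too. Acan, aggrecan, the main proteoglycan of perineuronal nets, gave 2.87, 3.68, 3.20, 2.70 and 2.68 CPM and then 2.77, 1.86, 2.82, 2.08 and 1.94 CPM. It was not called (log2 change -0.40 ± 0.18, adjusted p = 0.16), and the ages overlapped. Spock2 and Spock1 were not called (-0.27 and -0.13).

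Few projection neuron identity genes were called. Of 24 genes common to striatal projection neurons, none passed in edgeR (2 passed an unadjusted p of 0.05, and DESeq2 called 2, all lower), with changes from -0.49 to 0.14 and a median of -0.16. At least 13.6% of all genes passed that unadjusted p, and DESeq2 called 1599 of all genes lower. Ppp1r1b, which encodes DARPP-32, gave 3024, 3033, 2387, 4670.2 and 3655 CPM at 4 weeks and 3436, 3538, 2711, 3682 and 3133 CPM at 12 weeks (log2 change -0.023 ± 0.18, adjusted p = 0.95). Its 12-week libraries sat inside the 4-week range. Scn4b, a sodium channel subunit, had a value of -0.24. Of 13 direct-pathway genes 2 fell, where 6.52% of all genes tested did: Chrm4, the M4 muscarinic receptor, and Zfp521. Chrm4 gave 107, 113, 94.5, 139 and 117 CPM and 88.3, 93.2, 76.9, 86.5 and 89.7 CPM (log2 change -0.39 ± 0.094, adjusted p = 0.017), narrowly without overlap. Chrm4 was not called in HET striatum (-0.22 ± 0.074, adjusted p = 0.056). Its WT call was lost with all 30 striatal libraries in the fit (adjusted p = 0.074), with the cortical score as a covariate (0.065) and without 4-week WT 914 and WT 92 (0.054). Drd1, the D1 dopamine receptor, gave 425, 424, 357, 542 and 425 CPM and 389, 436, 348, 417 and 381 CPM, overlapping (log2 change -0.14 ± 0.11, adjusted p = 0.44). Tac1, the substance P precursor, was not called (0.25). Of 10 indirect-pathway genes tested, none passed in both fits: 2 were higher with all 10 libraries and in DESeq2, and none without WT 92. Penk, the enkephalin precursor, gave 1826, 1886, 1630.2, 2748 and 2126 CPM and 2285, 2401, 1878, 2084 and 1897 CPM (log2 change 0.046 ± 0.15, adjusted p = 0.87), and Drd2 and Adora2a, the D2 dopamine and adenosine receptors of these cells, were not called either (0.045 and -0.26). Their ages overlapped.

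Among 20 interneuron genes, 2 rose, where 3.54% of all genes did, and none fell. Both belong to the cholinergic lineage. Chat, which makes acetylcholine, gave 32.4, 33.7, 26.7, 31.4 and 23.5 CPM at 4 weeks and 47.9, 49.6, 36.7, 51.9 and 45.9 CPM at 12 weeks (log2 change 0.65 ± 0.11, adjusted p = 0.0028), with the 12-week libraries all above the 4-week ones. Lhx8, the transcription factor of these cells, gave 7.07, 7.39, 6.83, 6.53 and 5.35 CPM and 9.14, 10.4, 9.39, 11.02 and 10.2 CPM (log2 change 0.60 ± 0.11, adjusted p = 0.0034), also without overlap. Lhx8 is also on the list for globus pallidus and septum, whose 10 genes summed to 186 to 200 CPM at 4 weeks and 187 to 221 CPM at 12 weeks. The mean log2(CPM + 1) of that list was 2.76 to 2.99 at 4 weeks and 2.95 to 3.63 at 12 weeks. Only 12-week WT 2 (2.95) lay inside the 4-week range. The part of that tissue in the rise was not tested. In HET striatum neither gene passed (adjusted p = 0.079 and 0.085). Of the 20 interneuron genes, 2 were higher and 2 lower in HET, where 9.51% and 11.1% of all genes were. The list's median was 0.26 in WT and -0.029 in HET. Sst was not called with all 10 libraries (log2 change 0.25 ± 0.14, adjusted p = 0.25) and passed without WT 92 (0.39, adjusted p = 0.017). In the HET libraries Sst stood at 85.1 to 132 CPM at 4 weeks and 153 to 167 CPM at 12 weeks, without overlap. Pvalb and Nos1 were not called (0.36 and 0.014).

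Most synapse and axon genes were not called, though those that were had fallen. Of 25 postsynaptic scaffold and adhesion genes 5 fell, where 6.52% of all genes tested did, and none rose. In HET striatum 9 of the 25 were lower, where 11.1% of all genes were, and DESeq2 called 9 lower in WT, where it called 1599 of all genes lower. Among the 5 were Nlgn3, Nrxn2, Nlgn2 and Shank2. Nlgn3, a neuroligin found at excitatory and inhibitory synapses (chrX:101299168-101325963), gave 305, 308, 271, 321 and 309 CPM at 4 weeks and 145, 137, 146, 146 and 148 CPM at 12 weeks (log2 change -1.07 ± 0.067, adjusted p = 1.2e-05). Both ages were tight, and they were far apart. Nrxn2 and Nlgn2 changed by -0.57 and -0.47, and Camk2b and Camk2a were not called (-0.31 and -0.25). Of 32 axon growth and guidance genes 6 fell, against the same 6.52%, and none rose. In HET 9 were lower and 1 higher, where 11.1% and 9.51% of all genes were, and DESeq2 called 8 lower in WT, against the same 1599 of all genes. Dpysl2, the collapsin response mediator CRMP2, gave 267, 265, 247, 312 and 330.0 CPM and 121, 120.0, 132, 104 and 117 CPM (log2 change -1.26 ± 0.095, adjusted p = 1.6e-05), without overlap. Sema5a changed by -1.04 ± 0.14 (adjusted p = 0.00064), Cntn2 by -0.53, Ncam1 by -0.40, and Sema3a and L1cam fell as well. Gap43, the growth cone protein, gave 157, 167, 179, 188 and 246 CPM and 205, 210.4, 228, 156 and 209 CPM and was not called (log2 change 0.11 ± 0.13, adjusted p = 0.63). Epha4 and Efnb3 were not called (-0.17 and -0.30). Of 24 synaptic vesicle genes none passed in both fits (7 were lower and 1 higher at an unadjusted p of 0.05, and DESeq2 called 4 lower and 1 higher), with values of -0.095 for Cplx2 and 0.17 for Snap25. At least 13.6% of all genes passed that unadjusted p.

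Receptor subunits that switch during development elsewhere in the brain were mostly not called in WT striatum. The NMDA, AMPA, GABA-A and channel lists held 1 fall each, where 6.52% of all genes tested fell. Of 7 NMDA receptor subunits, Grin2c fell, from 59.9, 61.2, 51.02, 72.1 and 57.2 CPM to 44.4, 40.1, 36.2, 43.1 and 40.4 CPM (log2 change -0.56 ± 0.088, adjusted p = 0.0017). Grin2b, the juvenile-type subunit, gave 698, 639.6, 579, 689.7 and 465 CPM at 4 weeks and 349, 585, 328, 546 and 417 CPM at 12 weeks, with overlap, and was not called (log2 change -0.46 ± 0.17, adjusted p = 0.094). In HET striatum Grin2b was called (-0.76 ± 0.12, adjusted p = 0.0011), and 4 of the 7 subunits were lower, where 11.1% of all genes were. In WT, 3 of the 7 were lower with DESeq2, where 1599 of all genes were, and 3 with all 30 striatal libraries in the fit, where 1505 were. Grin2a, the adult-type subunit, was not called (log2 change -0.16 ± 0.12, adjusted p = 0.41), nor was Grin1 (-0.40). Of 14 AMPA receptor genes Cacng8 fell, and Gria2 and Gria1 were not called (0.18 and -0.20). Of 14 GABA-A receptor subunits Gabrg3 fell (log2 change -0.49 ± 0.077, adjusted p = 0.0015). Gabra2 passed with all 10 libraries (log2 change 0.37 ± 0.093, adjusted p = 0.022) and not without WT 92 (adjusted p = 0.062). Gabra4 was not called (-0.035). Of 24 sodium and potassium channel genes Kcnj10, an astrocyte and oligodendrocyte potassium channel, fell (log2 change -0.54 ± 0.11, adjusted p = 0.0069), and Kcnab1 was not called (-0.082).

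Of 7 chloride transporters 3 fell, where 6.52% of all genes did. Slc12a2, the importer NKCC1, gave 145, 109, 115, 140.4 and 111 CPM at 4 weeks and 66.05, 65.1, 60.8, 69.4 and 74.8 CPM at 12 weeks (log2 change -0.88 ± 0.094, adjusted p = 0.00011), with no overlap. Slc12a4 and Clcn3 changed by -0.57 and -0.25. Slc12a5, the neuronal exporter KCC2, gave 827, 862, 759, 1155 and 968 CPM and 825, 797, 683, 733 and 734 CPM, overlapping, and was not called (log2 change -0.28 ± 0.12, adjusted p = 0.15). Of 22 astrocyte genes 4 fell, against 6.52% of all genes: Slc1a2, the glutamate transporter GLT-1 (log2 change -0.75 ± 0.17, adjusted p = 0.012), Aqp4, the water channel (log2 change -0.72 ± 0.091, adjusted p = 0.00035), Gja1, a gap junction protein (-0.55), and Fgfr3. Aqp4 gave 82.96, 78.4, 67.6, 80.1 and 75.7 CPM at 4 weeks and 40.4, 42.3, 44.9, 56.1 and 49.5 CPM at 12 weeks, without overlap. Gfap gave 24.8, 12.3, 44.7, 29.8 and 35.7 CPM and 12.7, 12.9, 25.3, 20.2 and 17.9 CPM, overlapping and uncalled (log2 change -0.73 ± 0.29, adjusted p = 0.11), and Glul and Apoe were not called (-0.071 and -0.11).

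Few immune genes were called in WT striatum. Of 21 microglia and complement genes tested, Fcrls and Csf1r fell and Ctss, a lysosomal protease, rose (log2 change 0.36 ± 0.067, adjusted p = 0.0045). Over all genes tested, 6.52% fell and 3.54% rose. Cx3cr1, a microglial receptor, was not called (-0.16). C4b, a complement gene, gave 9.61, 9.78, 26.3, 11.2 and 10.2 CPM and 28.2, 21.4, 32.7, 16.9 and 22.5 CPM. Only 4-week WT 913 reached the 12-week range, and the gene was not called (log2 change 0.86 ± 0.28, adjusted p = 0.059). In the HET libraries C4b stood at 8.47 to 14.6 CPM at 4 weeks and 15.6 to 33.3 CPM at 12 weeks, without overlap. Of the 21 genes, 5 were higher and 2 lower in HET, where 9.51% and 11.1% of all genes were. Of 19 MHC class I and interferon response genes 3 rose, against 3.54% of all genes: Ifit3 (log2 change 1.04 ± 0.22, adjusted p = 0.0078), Ifi27 (0.32) and H2-D1. The call of Ifi27 (adjusted p = 0.039) was lost when 4-week WT 142, WT 42 or WT 914, or 12-week WT 1, WT 2, WT 3 or WT 4 was left out, with adjusted p from 0.068 to 0.094. That of Ifit3 was lost with the cortical score as a covariate (0.063), where 1 member of the list passed. B2m and Tapbp were not called (0.35 and -0.031). Of 14 imprinted growth genes, Igf2 and Igf2r fell, where 6.52% of all genes did. Igf2, a fetal growth factor made by meninges and vessels, gave 37.1, 28.1, 31.4, 30.5 and 33.2 CPM and 17.5, 15.6, 19.3, 15.4 and 16.5 CPM (log2 change -0.93 ± 0.087, adjusted p = 5.9e-05), without overlap. Meg3 and Peg3 were not called (-0.50 and -0.068).

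Genes of dividing and newborn cells were high in single libraries of both ages. Of 29 proliferation genes none passed in both fits: 1 was higher with all 10 libraries and in DESeq2, and none without WT 92. Mki67, a marker of dividing cells, gave 1.45, 0.662, 18.1, 0.439 and 3.02 CPM at 4 weeks and 0.835, 0.504, 6.65, 0.360 and 2.96 CPM at 12 weeks, and Dcx, a marker of migrating neuroblasts, gave 13.2, 11.02, 47.6, 8.96 and 14.5 CPM and 13.4, 7.23, 29.7, 8.66 and 18.6 CPM. Both were highest in 4-week WT 913 and 12-week WT 3, where the ependymal markers were also highest; neither was called (log2 change -1.08 ± 0.99, adjusted p = 0.51 and, for Dcx, -0.30 with an adjusted p of 0.72). Their part in the spread was not tested. Mcm4 and Mcm7 were not called (0.25 and 0.24). Of 24 progenitor and neuroblast genes 1 fell and 1 rose, where 6.52% and 3.54% of all genes did. Marcksl1 fell, from 66.2, 45.5, 75.6, 68.1 and 70.5 CPM to 25.7, 18.9, 37.9, 18.1 and 30.8 CPM (log2 change -1.31 ± 0.20, adjusted p = 0.0012), and Dlx6 rose (0.46). Tubb3 and Tubb2a were not called (-0.26 and -0.57).

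Activity, energy and translation lists held few calls in WT striatum, where 6.52% of all genes tested fell and 3.54% rose. Of 24 early activity genes Jun fell, although the list's median was -0.47, and 8 members were lower and 1 higher at an unadjusted p of 0.05. At least 13.6% of all genes passed that unadjusted threshold in one direction or the other, since 13.6% passed the adjusted one. Fos gave 14.5, 19.02, 46.2, 17.7 and 21.7 CPM and 6.22, 7.53, 25.3, 18.5 and 44.2 CPM, overlapping and uncalled (log2 change -0.23 ± 0.48, adjusted p = 0.79), and Egr1 and Homer1 were not called either (-0.63 and -0.13). Of 40 oxidative phosphorylation genes Ndufb3 rose (0.35), and Atp5b and Atp5a1 were not called (-0.12 and -0.16). Of 46 cytosolic ribosomal protein genes 4 rose, Rpl37, Rpl23 (0.41), Rps24 and Rps27, and Rpl3 and Rpl4 were not called (0.080 and 0.17). That count was 32 without 4-week WT 914 and WT 92, where 534 of all genes were higher. It was 0 without the 3 ependymal-rich libraries, where 349 of 15264 genes were higher. With limma-voom quality weights it was 19, where 1176 of all genes were higher. With the cortical score as a covariate it was 11 (435 of all genes), and with RLE scaling 3 (768 of all genes). WT 914 and WT 92 are the 2 libraries whose values were whole numbers in 5.23% and 5.43% of genes against 17.4% to 28.1% elsewhere. Of 15 protein kinase A subunits, inhibitors and anchoring partners none passed in both fits (1 was lower with all 10 libraries and none without WT 92, 3 were lower and 1 higher at an unadjusted p of 0.05, and DESeq2 called 3 lower), with values of -0.15 for Prkacb and -0.092 for Prkar1a. Akap11 was not called (log2 change -0.22 ± 0.081, adjusted p = 0.096).

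**Figure D5:**
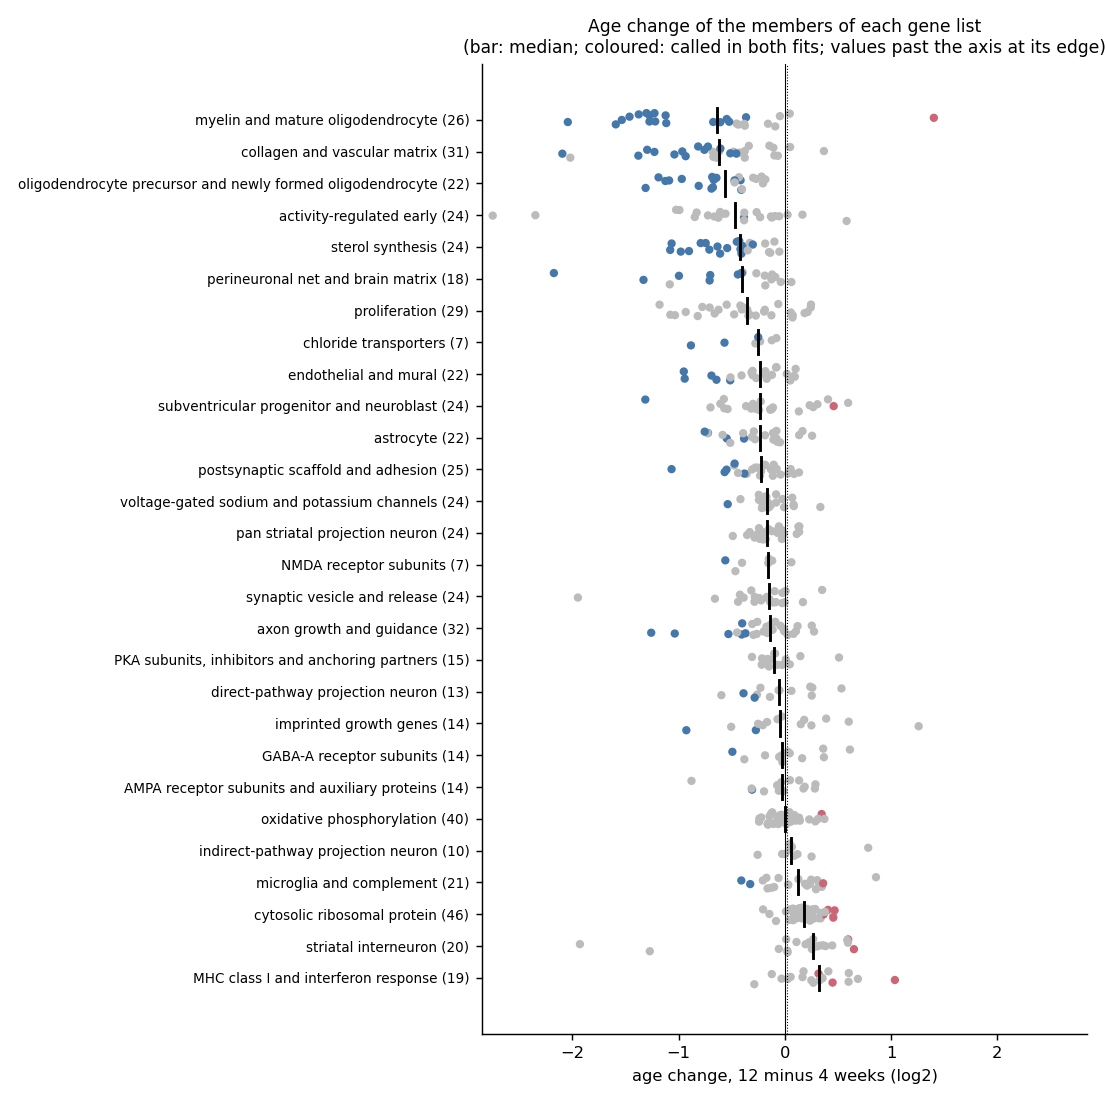
Age change (12 minus 4 weeks, log2) of the tested members of 28 gene lists, ordered by their median (bar), with members called both with and without 4-week WT 92 in red (higher) or blue (lower) and the others grey; the dotted line is the median of all genes (0.02). The myelin, collagen, precursor, sterol and brain matrix lists have blue members well to the left, and the projection neuron lists are mostly grey.

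The largest rises were of genes from varied settings. Xdh, xanthine dehydrogenase, which breaks down purines (chr17:73883895-73950196), gave 0.821, 0.575, 0.890, 1.76 and 1.09 CPM at 4 weeks and 5.38, 9.38, 5.07, 8.22 and 4.45 CPM at 12 weeks (log2 change 2.67 ± 0.30, adjusted p = 0.00018). Lrrc17, a secreted leucine-rich repeat protein (chr5:21543559-21575904), was far more abundant, at 35.2, 58.9, 89.8, 41.8 and 42.6 CPM and then 309.6, 266, 243, 263 and 386 CPM (log2 change 2.45 ± 0.24, adjusted p = 6.4e-05). In both genes every 12-week library was above every 4-week library. Slc4a11, a membrane transporter, changed by 2.29 ± 0.32 (adjusted p = 0.00085), Etnppl, an enzyme of phosphoethanolamine breakdown found in astrocytes, by 1.95 ± 0.20 (adjusted p = 8.5e-05), Abca8a, a lipid transporter, by 1.73, Hsf4, a heat shock factor, by 1.47, Pkp2 by 1.48 and Efemp1, a matrix fibulin, by 1.24. Wnt8b, a Wnt ligand, gave 1.38, 1.38, 0.601, 0.967 and 1.05 CPM and 4.72, 6.41, 2.26, 5.52 and 3.73 CPM (log2 change 2.07 ± 0.30, adjusted p = 0.00093) without overlap, and in HET striatum it was not called (0.79 ± 0.27, adjusted p = 0.058). Lars2, a mitochondrial tRNA synthetase, gave 615, 632, 400.3, 300.4 and 957 CPM and 1676, 1429, 2244, 1833 and 1719 CPM (log2 change 1.61 ± 0.26, adjusted p = 0.0020). Gm42418, a gene model known to collect ribosomal RNA reads, stood at 473 to 1603 CPM at 4 weeks, highest in WT 92, and at 1423 to 3010 CPM at 12 weeks. Its part in the Lars2 result was not tested. Among the largest falls not named above were Rab7b, a small GTPase (-1.84), and Cldn14, a claudin (-1.50).

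The HET striatum, with no library in common, gave the age comparison a separate set of samples. Its 2 ages are separate sets as well, so age and anything else that differed between the sets cannot be told apart there either. Markers of neighbouring tissue were not summed in the HET libraries. Of 15310 genes tested there 3157 (20.6%) passed, 1701 lower (11.1%) and 1456 higher. Of the 1526 genes that rose or fell in WT striatum, 1523 were tested in HET, 1520 had the same sign and 1288 were called in the same direction. Over all 15066 genes tested in both, 79.2% had the same sign. Ecel1, Marveld2 and Mef2c had the opposite sign. Of the myelin list 17 members were lower and 1 higher in HET, of the precursor list 21 lower, of the sterol list 17 lower and of the collagen list 18 lower, with medians of -0.54, -0.58, -0.41 and -0.55. Several other lists also had more calls in HET than in WT. Of the ribosomal protein list 27 of 46 were higher in HET, and of the oxidative phosphorylation list 9 of 40 were higher and 1 lower, where 9.51% of all genes were higher. Of the 24 projection neuron genes 4 were lower and 1 higher. Whether these changes differed between the genotypes was not tested. Mbp changed by -1.01 ± 0.16 (adjusted p = 0.0010) in HET, Hmgcs1 by -0.92 ± 0.067 (adjusted p = 6.9e-06), Nlgn3 by -1.01 ± 0.045 (adjusted p = 2.1e-07) and Lrrc17 by 2.45 ± 0.14 (adjusted p = 1.1e-06).

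Leaving out the 3 ependymal-rich libraries (4-week WT 913, 12-week WT 3 and WT 5) lowered the number of genes called in WT striatum to 957. In that fit 3.98% of all genes were called lower. The counts on the lower side were then 15 of 26 for myelin, 14 of 22 for precursors, 15 of 24 for sterol synthesis, 12 of 32 for collagens and 5 of 18 for brain matrix. Without those and WT 92, Mbp, with a change of -1.23, had an adjusted p of 0.058. Several named genes share exonic bases with another gene, so that reads may have been split between them, among them Lrrc17 with Fbxl13, Col4a1 with Col4a2, Cyp51 with Akap9 and Gpr17 with Lims2.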

How the data were processed

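The authors deposited 1 table of expected counts per gene for the whole series: estimated counts that need not be whole numbers. Salmon and mm10 are named in the submitters' processing notes, with no version; the sources used here do not say whether the counting used strand, nor on which annotation it ran. Every column matched a sample label. Counts were rounded to whole numbers, filtered with filterByExpr, scaled by TMM and tested with the quasi-likelihood test of edgeR 4.0.16 (R 4.3.3), with Benjamini-Hochberg adjustment over all genes tested and a threshold of 0.05; the SE is the log2 change divided by the root of F. CPM, as used in the text, are counts over the TMM-scaled library size, set to the usual common total. The script was tested on simulated counts. DESeq2 1.42.0 and limma 3.58.1 served as alternatives. No 2 WT striatal libraries of 1 age agreed within sampling noise (chi-square per degree of freedom of at least 15.2 over 20 pairs). Totals of 31923033 to 71225358 counts set the precision, and their counting error covers sampling of reads only.

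The age change was fitted on the 10 WT striatal libraries, and again on 10 HET libraries. The region difference was fitted on 8 WT groups (41 libraries). Genes named were the 12 largest rises and 12 largest falls called with and without WT 92 (average log2 CPM of at least 1, no overlap, predicted and antisense genes left out), up to 4 called members without overlap and up to 2 most abundant uncalled members of each of 28 lists, the 5 largest region differences in each direction, and a set of standard markers; some genes that this rule named are not reported here. Members of a list that are named without a value were called in both fits. The members and lists were chosen with earlier results of these data known. Gene positions are those of GENCODE M21 (GRCm38), promoter sequences those of RefSeq (GRCm38.p6). Alternatives covered scaling, filter, tool, libraries left out, a cortical covariate and the regions compared.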

Additional observations from a re-analysis of the deposited data

Results flagged for a closer look

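Over 290 groups of 5 libraries (each named gene at each age), 15 had 1 library whose gap to the nearest other was over 0.71 of the group's range; chance gives about 1 in 20 groups. 4-week WT 913 was the highest for Slc4a11 (2.77 CPM), Mki67 (18.1), Dcx (47.6), C4b (26.3) and Fos (46.2), and the lowest for Sc5d (36.1). 4-week WT 92 was the highest for Hsf4 (3.24 CPM), and 4-week WT 142 the highest for Sema6a (97.2) and Hs3st1 (13.4). At 12 weeks, WT 5 was the highest for Col3a1 (1.22 CPM) and Enpp6 (13.4), WT 1 the highest for Cldn5 (19.1) and WT 4 the highest for Ctss (57.5), while WT 2 was the lowest for Nlgn3 (137) and WT 3 the lowest for Spock1 (164).

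The age change of 16 named genes differed between striatum and the mean of PFC, SSC and HP in edgeR's interaction contrast over 17129 genes. On the log2 scale it was lower in striatum by these values: Gsn -1.02, Rras2 -0.99, Tmem141 -0.89, Car14 -0.87, Hs3st1 -0.80, Col4a1 -0.73, Hmgcs1 -0.66, Idi1 -0.58, Sqle -0.53, Cyp51 -0.45 and Sc5d -0.43. It was higher in striatum for Pcdhgb4 (1.13), Pkp2 (1.11), Zbtb46 (1.07), Pcdhga7 (0.90) and Pcdhgb5 (0.76).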

How the results depend on the processing

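The age changes of the named genes kept direction and call under most settings. For the 80 called genes, 1469 of 1520 alternative values kept both, 51 (in 15 genes) kept the direction and lost the call, and none reversed. Genes were named largely for passing with and without WT 92, so that setting was mostly met in advance. Many were also named for large changes with no overlap between the ages. That choice favours keeping the direction and call under the other settings, so these counts do not describe called genes in general. Region differences are not part of that count. The number of genes called in WT striatum (2056) was 1953 with RLE scaling, 1615 with no low-count filter, 2727 with DESeq2, 2964 with all 30 striatal libraries, 2507 with limma-voom quality weights, 1411 without WT 914 and WT 92, and 1419 to 1927 when 1 library was left out. It fell to 1174 with the cortical score as a covariate. It was 957 without the 3 ependymal-rich libraries and 884 without those and WT 92, choices made after seeing the data, with fewer samples. For HET striatum (3157) the range over libraries left out was 2156 to 3172. The 72 region differences became 167 with DESeq2 and 21 against all 5 other regions, and 48 to 141 with 1 library left out, the highest without 4-week WT 913 and the lowest without 12-week WT 3; the cause was not tested. RLE scaling moved the median of all genes by -0.02. The Car14 difference lost its call under most single omissions, and the Cyp51 difference without 4-week striatal WT 914 or 12-week striatal WT 1. Among age changes, Ifi27 lost its call under 7 single omissions, Zbtb46 under 6 (4-week WT 142, WT 42 and WT 914, 12-week WT 1 to WT 3; adjusted p of 0.057 to 0.086), Clcn3 under 3 (4-week WT 142, 12-week WT 1 and WT 2; 0.052 to 0.058) and Gabra2 under 3 (4-week WT 914 and WT 92, 12-week WT 1; 0.055 to 0.062).

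Libraries of different regions share numbers in the labels, which do not say whether a shared number means a shared animal. The edgeR fit of 41 libraries treated them as separate, and a pairing was not excluded. The deviations of same-numbered libraries correlated at -0.11 to 0.28 over 28 pairs, above 0.1 in 9. 11 of the 28 correlated best with their own number. As a hint from the data, these include 4-week 913 and 914 with PFC and SSC (0.21 to 0.28) and 12-week 1 with all 3 regions (0.14 to 0.15). With the replicate number as a block in limma-voom, 59 genes differed between regions, against 49 without the block. No paired analysis was possible for the age change itself because the 4-week and 12-week libraries share no number.

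Values of the 65 named genes that were not called changed sign under some settings (log2 changes). With DESeq2 the changed values were Nos1 -0.0028. With RLE scaling the changed values were Nos1 -0.0024. With the cortical covariate the changed values were Ppp1r1b 0.022, Nos1 -0.074, Spock1 0.045, Apod -0.011, Glul 0.074, Col6a1 0.14, Peg3 0.022, Fdft1 0.033, Atp5b 0.012 and Prkar1a 0.028. With limma-voom with quality weights the changed values were Ppp1r1b 0.052, Nos1 -0.059, Glul 0.097, Apoe 0.016, Slc2a1 0.041 and Peg3 0.022. With omission of the 3 ependymal-rich libraries the changed values were Gabra4 0.0071, Tapbp 0.0050, Homer1 0.026 and Rpl3 -0.0039. With omission of those and WT 92 the changed values were Apod -0.010, Glul 0.018, Tapbp 0.0022 and Homer1 0.0047. With omission of WT 914 and WT 92 the changed values were Ppp1r1b 0.21, Nos1 -0.098, Gabra4 0.0041, Kcnab1 0.035, Cplx2 0.12, Camk2a 0.042, Spock1 0.047, Car2 0.048, Glul 0.24, Apoe 0.13, Slc2a1 0.19, Peg3 0.028, Fdft1 0.037, Atp5b 0.14, Atp5a1 0.043, Prkacb 0.00062 and Prkar1a 0.074. Leaving out 1 WT library at a time gave -0.12 to 0.10 for Ppp1r1b, -0.026 to 0.15 for Penk, -0.048 to 0.083 for Nos1, -0.10 to 0.027 for Gabra4, -0.044 to 0.16 for Apod, -0.18 to 0.060 for Glul, -0.18 to 0.0030 for Apoe, -0.082 to 0.012 for Tapbp, -0.020 to 0.14 for Drd2, -2.05 to 0.66 for Mki67, -0.67 to 0.37 for Dcx and -0.73 to 0.15 for Fos.

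Depth limits low genes: at the lowest total of 31923033 counts, Tnc, Col3a1 and Xdh at about 1 CPM rest on few reads, and genes under the low-count filter were not tested.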
